A study of Mus musculus with 17 samples.

Results

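The response described here is the change in gene expression after immune complexes (IC), averaged over 3 subsets of macrophages of the synovium, the membrane that lines joints. It was taken over all 17 libraries of the series, 8 labelled IC against 9 labelled Healthy and used as controls, with the subset of each library in the model. All mice carried the Fcgr2b-KO genotype, controls included, so these data hold no comparison with mice that have the gene. Adult mice of the IC groups received ovalbumin bound by rabbit antibodies into a vein and were culled 8 h later. Cells were released from the dissected synovium with collagenase and sorted. The labels mark LYVE1+CX3CR1+ macrophages as Lyve1, MHCII+CD11c- macrophages as IAIE and MHCII+CD11c+ macrophages as CD11c. Each subset had 3 control and 3 IC libraries, but for MHCII+CD11c+ macrophages 2 IC libraries were analysed here. The labels do not say whether the controls were injected, at what time of day tissue was taken, or which libraries came from the same animals. The p-values therefore measure the spread between libraries, and the response to IC cannot be told apart from a response to injection.

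Immune complexes are antibodies bound to their antigen. Macrophages bind them through Fc receptors, of which the activating ones signal through the common gamma chain and the Syk kinase, and the product of Fcgr2b is the inhibitory one. Tissue macrophages also answer to hormones and to the time of day: glucocorticoids bind a nuclear receptor that switches on genes such as Fkbp5 and Tsc22d3, and the circadian clock is a loop in which the products of Per and Cry genes hold back the activators CLOCK and ARNTL.

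Libraries held between 2301913 and 7248939 counts. With all libraries reduced to the same depth, the Lyve1 IC libraries had 11547 to 13837 detected genes, mostly fewer than the 13809 to 17682 of the other groups. The ranges overlapped between Lyve1 IC replicate 2 (13837) and MHCII+CD11c+ control replicate 3 (13809). The floor of detection, 3 counts of a gene in 1 library, lay between 0.418 and 1.24 CPM, the counts scaled to a common library size. Reads were counted for Fcgr2b in every library, 167 to 1168 of them or 69.3 to 248 CPM. The labels do not say which part of the gene is missing in these mice, so a count over the whole gene does not check the genotype. Of the variance among the 500 most variable genes, 61.0% lay on a first component that followed the subsets, and the fourth, with 4.75%, was the one of 5 components examined that set all IC libraries apart from all controls.

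On average over the subsets, 511 of 15272 genes tested changed after IC (3.35%). The test was the edgeR quasi-likelihood test with Benjamini-Hochberg adjustment over all genes tested, and a gene was called at an adjusted p under 0.05. Of all genes tested, 1.70% were called higher and 1.65% lower, which was 259 and 252 genes. Both counts depended on single libraries: 198 genes (128 higher, 70 lower) were called without MHCII+CD11c+ IC replicate 1, 212 (136 higher, 76 lower) without replicate 2 and 325 (180 higher, 145 lower) without LYVE1+CX3CR1+ control replicate 1. With the subsets averaged into 1 value for each replicate number and treatment, 72 genes were called (42 higher, 30 lower). The median average log2 fold change was 0.685 in the genes called higher, and 59 of them passed 1 log2 unit. It was -1.0 in the genes called lower, or -0.957 with groups at 0 set to the bound that the floor allows, and 126 of these genes passed 1 log2 unit on the lower side. The median over all genes tested was -0.0703.

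Most of these genes were called in the average and not in a subset. Of the 511 genes, 302 were called in no subset by itself, 152 of them higher and 150 lower. The direction was the same in all 3 subsets for 474 of the called genes, or 92.8%, where 37.3% of all genes tested had 1 direction in all 3. Since the average is built from the 3 responses, this share is a description. The higher genes responded most in MHCII+CD11c- macrophages, with a median log2 fold change of 0.855 there, 0.462 in LYVE1+CX3CR1+ and 0.655 in MHCII+CD11c+ macrophages. The lower genes responded most in LYVE1+CX3CR1+ macrophages, with medians of -1.43 there and -0.867 and -0.634 in the MHCII+CD11c- and MHCII+CD11c+ subsets. In 74 of the 252 lower genes, and in 0 of the higher genes, all 3 Lyve1 IC libraries were at the floor, as in 1762 of all genes tested. Averaged over the other 2 subsets alone, 167 genes were called higher and 34 lower. With all libraries reduced to the same depth, 260 genes were called higher and 187 lower.

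A gene called in 2 subsets can be looked up in the one left out, whose response did not enter the average that was tested. Its libraries did enter the filter, the scaling and the estimate of the spread, which came from the fit to all libraries. With MHCII+CD11c- macrophages left out, 53 of 54 higher and 63 of 66 lower genes had the same sign in them, against 61.7% and 62.9% of all genes tested. With MHCII+CD11c+ macrophages left out, these were 157 of 176 and 246 of 332, against 62.6% and 56.8%. With LYVE1+CX3CR1+ macrophages left out, they were 136 of 167 and 27 of 34, against 49.3% and 67.6%. The excess over all genes was smallest for the lower genes of the last split. Signs do not give the size of a response. In the first split, median log2 fold changes in the calling subsets and in the one left out were 0.818 and 0.892 for higher genes. For lower genes they were -2.14 and -0.74. In the second split they were 0.773 and 0.457 for higher and -1.18 and -0.325 for lower genes. In the last split they were 0.895 and 0.325 for higher and -1.09 and -0.733 for lower genes. The shares carry no test, since genes of a library are not independent and the subsets may come from the same animals.

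**Figure D1:**
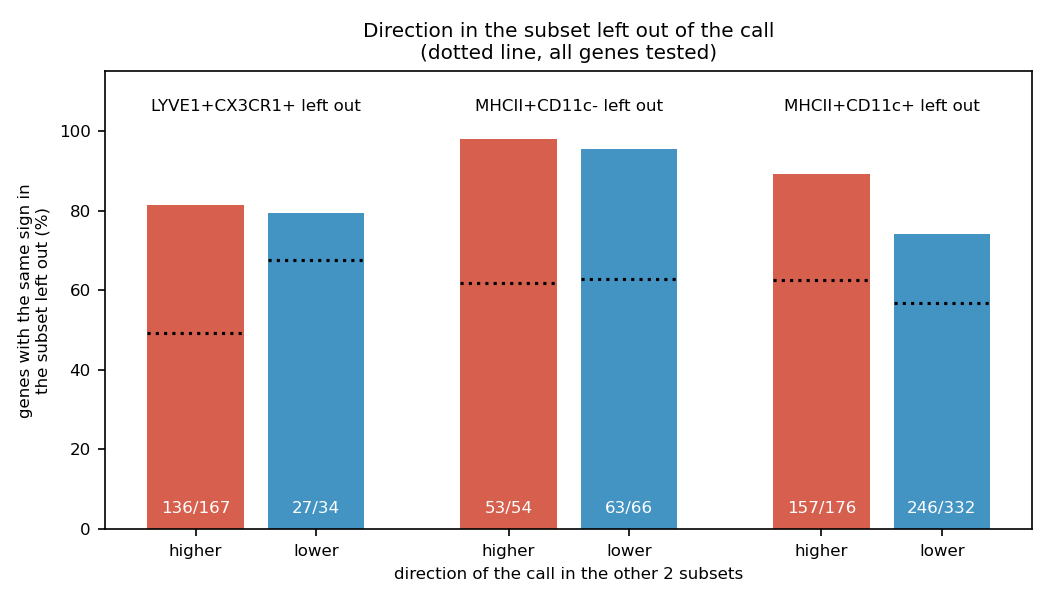
Bars give the percentage of genes called over 2 subsets (red, higher; blue, lower) whose log2 fold change had the same sign in the third, with the counts at the foot, and dotted lines give that percentage over all genes tested. Bars stood above their lines in all 6 cases, from 74.1% to 98.1%.

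Fkbp5, which encodes a co-chaperone of the glucocorticoid receptor, had the smallest p of all genes. Its gene lies on chromosome 17 of GRCm38, from 28399094 to 28517527 on the minus strand. In LYVE1+CX3CR1+ macrophages it stood at 11.3, 24.3 and 10.6 CPM in controls and at 163, 130 and 184 CPM after IC. In MHCII+CD11c- macrophages the levels were 17.7, 27.0 and 12.4 CPM in controls and 206, 162 and 341 CPM after IC. In MHCII+CD11c+ macrophages they were 19.1, 32.5 and 30.3 CPM in controls and 145 and 127 CPM after IC. The lowest IC library lay above the highest control library, at 127 against 32.5 CPM. The average rise was 8.62-fold, a log2 fold change of 3.11 ± 0.21 (SE, n = 8 IC and 9 control libraries, edgeR adjusted p = 6.42e-08).

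Tsc22d3, whose product GILZ carries anti-inflammatory actions of glucocorticoids, lies on chromosome X from 140539528 to 140600659 on the minus strand. Its levels in controls were 215, 247 and 275 CPM in LYVE1+CX3CR1+, 194, 139 and 244 CPM in MHCII+CD11c- and 125, 109 and 99.5 CPM in MHCII+CD11c+ macrophages. After IC they were 494, 433 and 485 CPM, then 600, 416 and 567 CPM, then 323 and 220 CPM. Groups did not overlap within any subset, but the lowest IC library of MHCII+CD11c+ macrophages lay below controls of the other subsets. The average rise was 2.34-fold (log2 fold change 1.23 ± 0.12, edgeR adjusted p = 3.47e-06).

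Ms4a6c, a member of a family of membrane proteins with 4 passes, lies on chromosome 19 from 11469366 to 11482192 on the plus strand. Control levels were 74.7, 75.7 and 64.7 CPM in LYVE1+CX3CR1+, 67.0, 71.7 and 69.2 CPM in MHCII+CD11c- and 46.4, 31.0 and 39.7 CPM in MHCII+CD11c+ macrophages. IC levels were 139, 117 and 178 CPM, then 188, 143 and 289 CPM, then 99.8 and 79.3 CPM. All 8 IC libraries lay above all 9 controls, with 79.3 CPM as the lowest IC and 75.7 CPM as the highest control value. The average rise was 2.40-fold (log2 fold change 1.26 ± 0.14, edgeR adjusted p = 5.58e-06). The calls of Fkbp5, Tsc22d3 and Ms4a6c held in all 32 alternatives run, among them each average over 2 subsets.

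**Figure D2:**
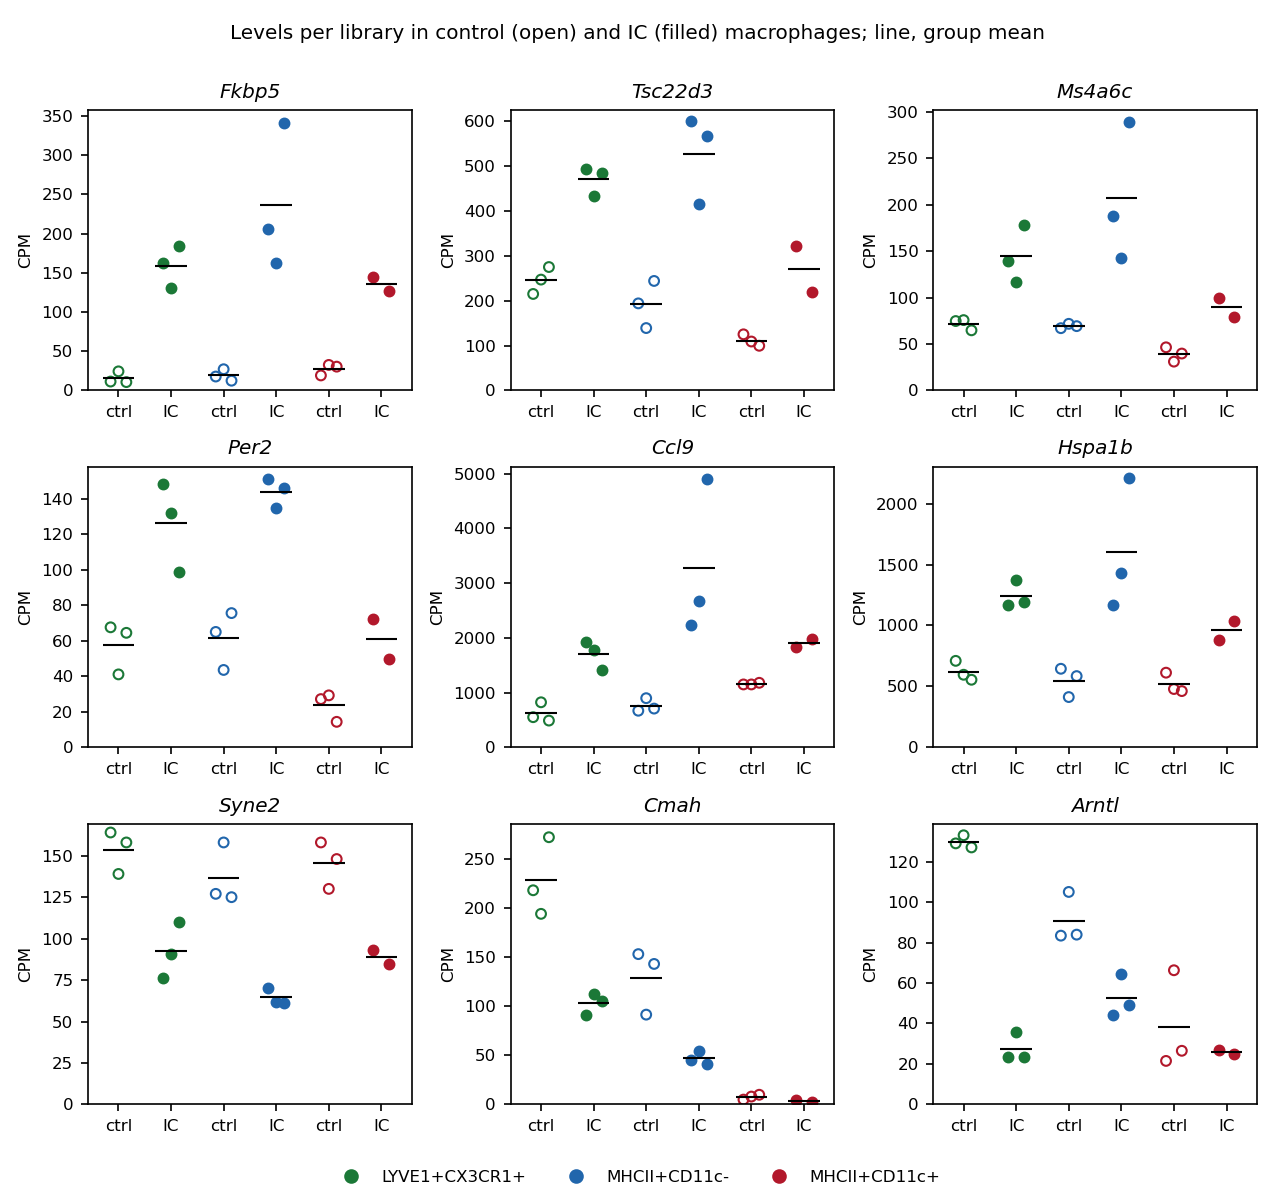
Each point is the CPM of a gene in 1 library, open for control and filled for IC, by subset, with a line at the group mean and axes that start at 0. Fkbp5, Ms4a6c, Ccl9 and Hspa1b have all IC libraries above all controls and Syne2 all below, while Cmah and Arntl overlap in MHCII+CD11c+ macrophages.

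The other higher genes with the smallest p were of mixed function. Wee1, a kinase that holds cells back from mitosis, went from 13.4 to 28.4 CPM in controls (median 23.1) to 38.1 to 100 CPM after IC (median 75.6), a 3.15-fold rise (log2 fold change 1.65 ± 0.17). Cacna1d, a subunit of L-type calcium channels, was at 16.3 to 52.3 CPM in controls and 66.1 to 178 CPM after IC, and rose 3.37-fold. In both genes all IC libraries stood above all controls. Cebpb, a transcription factor of myeloid cells, went from 158 to 251 CPM in controls to 305 to 423 CPM after IC, a narrow range over all 3 subsets. The range of Gda, guanine deaminase, was 158 to 447 CPM in controls and 477 to 1020 CPM after IC. Jdp2, a repressor of AP-1, was at 39.8 to 83.6 CPM and at 91.3 to 278 CPM. Ucp2, a mitochondrial carrier, rose 1.78-fold from a control median of 816 to an IC median of 1590 CPM. Its response was smallest in MHCII+CD11c+ macrophages (log2 fold change 0.37 ± 0.16), where controls were already at 1150 to 1350 CPM. Man2a1, a mannosidase of the Golgi, rose 1.95-fold with no overlap within any subset. Adjusted p-values of these 7 genes lay between 3.47e-06 and 5.68e-05 in the edgeR test.

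Of the genes that fell, Syne2, which encodes a large protein of the nuclear envelope, was at 125 to 164 CPM in controls (median 148) and at 61.4 to 110 CPM after IC (median 80.3). All IC libraries lay below all controls, and the average log2 fold change was -0.84 ± 0.11 (edgeR adjusted p = 6.73e-05). Utrn, the cytoskeletal protein utrophin, also had no overlap over all libraries, with 243 to 480 CPM in controls and 90.8 to 205 CPM after IC. Zbtb20, a transcriptional repressor, fell from a control median of 93.1 to an IC median of 54.3 CPM, by 0.88 ± 0.12 on the log2 scale. Cmah, the enzyme that hydroxylates sialic acid, was at 91.4 to 272 CPM in controls of the first 2 subsets and at 41.3 to 112 CPM after IC. In MHCII+CD11c+ macrophages Cmah was low in both groups, at 4.89, 7.99 and 9.83 CPM in controls and 4.99 and 2.75 CPM after IC. Kif23, a kinesin of cell division, fell by 1.46 ± 0.21 and P3h2, a prolyl hydroxylase of collagen, by 2.36 ± 0.32 on the log2 scale. Both groups of P3h2 were apart within every subset, with a control median of 26.2 and an IC median of 5.59 CPM. Mamdc2 fell by 0.99 ± 0.16, Mctp1 by 0.99 ± 0.16 and Snx29 by 1.18 ± 0.19. The calls of Mctp1 and Snx29 were lost without MHCII+CD11c- macrophages, with adjusted p = 0.0669 and 0.0869, and with 1 value per replicate number and treatment, with adjusted p = 0.0668 and 0.0873 (limma).

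Several of the largest falls rested on LYVE1+CX3CR1+ macrophages. Mgl2, the lectin CD301b, was at 94.9 to 130 CPM in their controls and 5.67 to 17.8 CPM after IC, a log2 fold change of -3.04 ± 0.36, against -0.83 ± 0.32 and -0.77 ± 0.36 in the other subsets. Rnase6, a secreted ribonuclease, was at 3.46, 4.59 and 4.05 CPM in these controls and had no read in the 3 Lyve1 IC libraries, which makes it at least 3.25-fold lower there. Averaged over the other 2 subsets, Mgl2 (-0.80, adjusted p = 0.135), Rnase6 (-1.22, adjusted p = 0.0984), Kmo (-1.19, adjusted p = 0.143) and Arntl (-0.68, adjusted p = 0.188) did not pass the edgeR test. Kmo encodes an enzyme of the kynurenine pathway. Slc14a1, a urea transporter, was at 3.34 to 36.1 CPM in controls and 0 to 3.71 CPM after IC, and groups were apart in each subset. Hepacam2 ranged from 26.9 to 117 CPM in MHCII+CD11c+ macrophages and was at or under 14.1 CPM elsewhere. In LYVE1+CX3CR1+ macrophages it was at 1.26, 1.08 and 2.23 CPM in controls and 0.293, 0 and 0 CPM after IC, where the floors of the IC libraries were 0.877 to 1.24 CPM. With 1 value per replicate number and treatment its call was lost (limma adjusted p = 0.126).

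**Figure D3:**
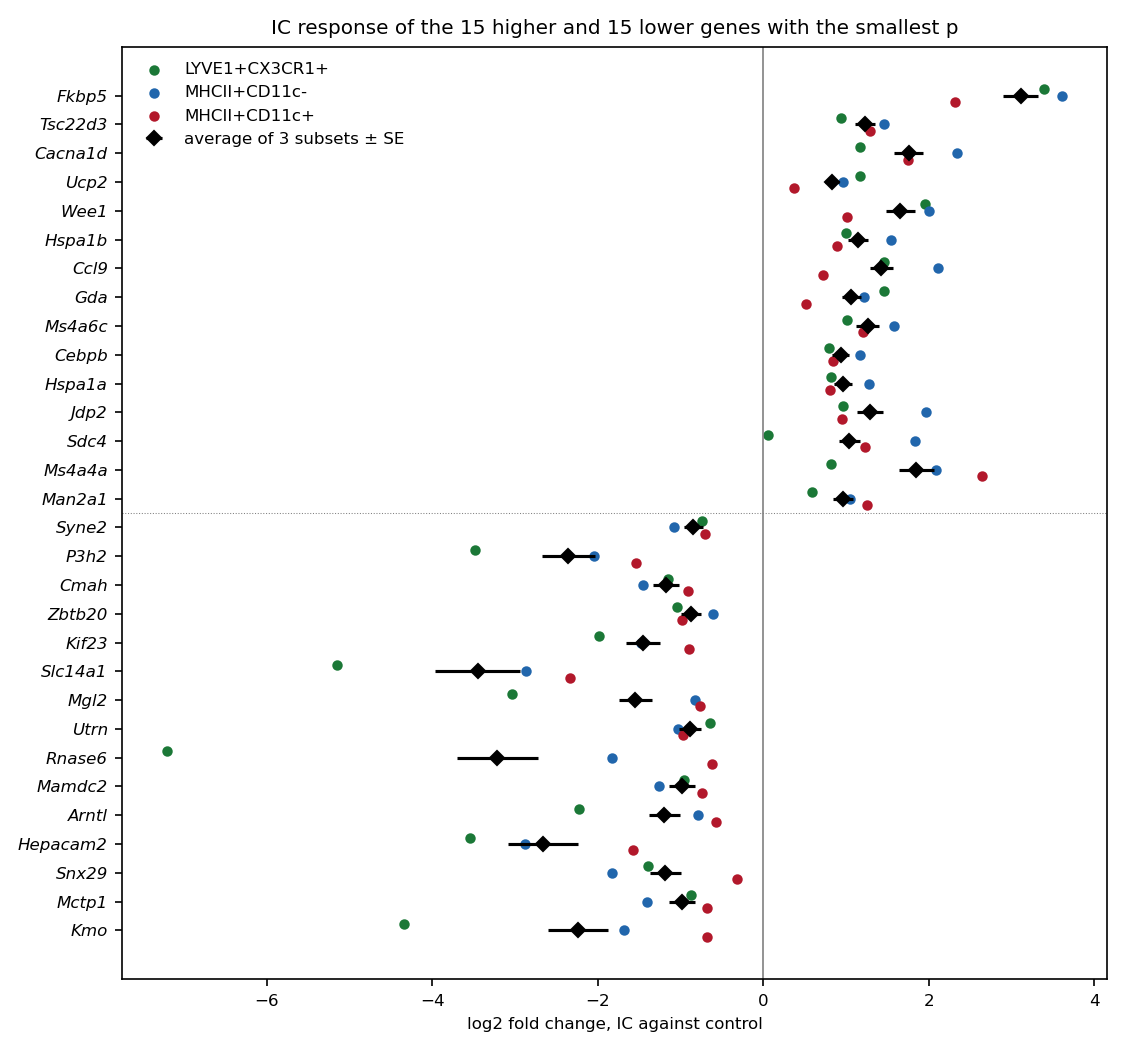
Diamonds give the average log2 fold change after IC with its SE for the 15 genes on each side that had the smallest p and 1 direction in all subsets, and dots the change in each subset. For Fkbp5 the dots lie between 2.32 and 3.61, while for Rnase6, Slc14a1 and Kmo the dot of LYVE1+CX3CR1+ macrophages, whose IC libraries were at or near the floor, lies far to the left.

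Libraries of the 2 groups were fully apart in each of the 3 subsets for 90 of the genes called higher and 57 of those called lower. Over all genes tested, 0.727% were apart on the higher side (111 genes) and 0.511% on the lower side (78 genes). Without regard to subset, all 8 IC libraries lay above all 9 controls for 0.124% of genes (19, all called) and below them for 0.0786% (12, of which 9 were called). Genes called higher also had more reads, with a median of 104 CPM against 36.7 CPM for the lower and 14.0 CPM for all genes tested, not scaled by gene length.

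The response was next read through 19 gene lists of pathways, with 269 of 275 members tested. Of these, 57 were called higher and 15 lower, against the 1.70% and 1.65% over all genes tested. The lists were drawn up with earlier results of these data known, so counts and medians describe them and carry no test. Without MHCII+CD11c+ IC replicate 1, 42 members were called in place of 72, among them 4 chemokines in place of 8, 3 Ms4a genes in place of 5 and 2 interferon-stimulated genes in place of 6, and without replicate 2, 47 were called.

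A list of genes induced by glucocorticoids, which also holds the gene of their receptor, had 6 of 20 members called higher and 1 lower. At an unadjusted p under 0.05, 12 were higher and 4 lower. Over all 15272 genes tested, 2706 had an unadjusted p under 0.05, 1072 of them higher. The median log2 fold change was 0.533, or 0.399 with groups at 0 set to their bound. Beside Fkbp5 and Tsc22d3, those called higher were Per1, Dusp1, Mt1 and Map3k6. Dusp1, a phosphatase that switches off MAP kinases, was at 1280 to 1760 CPM in controls and 1700 to 2350 CPM after IC (log2 fold change 0.42 ± 0.09, edgeR adjusted p = 0.00796). Mt1, a metallothionein, rose by 0.90 ± 0.19, with values of 1.23, 1.46 and 0.01 in the 3 subsets. Zbtb16, Sgk1 and Ddit4, further targets of the receptor, had averages of 1.06, 1.07 and 1.35 and did not pass (adjusted p = 0.0973, 0.173 and 0.0745). Errfi1, Cebpd and Il1r2 had averages of -0.47, -0.49 and -1.42 and did not pass either (adjusted p = 0.152, 0.0877 and 0.142). Cd163, Anxa1 and Rgs2, with averages of 0.10, 0.12 and -0.02, did not pass, and 15 of the 20 averages were positive. The fitted average of Il1r2 is set by Lyve1 IC libraries with no read, and it is 0.218 with the bound. In MHCII+CD11c+ macrophages Il1r2 was at 20.2, 23 and 18.5 CPM in controls and at 48 and 32.8 CPM after IC. The 1 member called lower was the gene of the receptor itself, Nr3c1, which fell by 0.45 ± 0.11 (edgeR adjusted p = 0.0293), from a control median of 233 to an IC median of 164 CPM. Without LYVE1+CX3CR1+ macrophages 3 members were called higher and 0 lower.

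Of 17 circadian clock genes tested, 5 were called higher and 1 lower, with a median of 0.534. Those higher encode repressors of the loop (Per1, Per2, Cry1, Cry2) and an output factor (Tef), and the lower one was Arntl, an activator. Per2 lies on chromosome 1 from 91415982 to 91459324 on the minus strand. Its control levels were 67.6, 41.1 and 64.5 CPM in LYVE1+CX3CR1+, 65.0, 43.6 and 75.6 CPM in MHCII+CD11c- and 27.2, 29.3 and 14.4 CPM in MHCII+CD11c+ macrophages. After IC these were 148, 132 and 98.7 CPM, then 151, 135 and 146 CPM, then 72.1 and 49.8 CPM. Groups were apart within each subset, and Per2 rose 2.36-fold on average (log2 fold change 1.24 ± 0.16, edgeR adjusted p = 5.73e-05).

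Tef ran from 14.5 to 58.9 CPM in controls and from 30.4 to 135 CPM after IC, with no overlap within a subset, and rose by 0.99 ± 0.16 on the log2 scale. Cry2 rose by 1.05 ± 0.19, Cry1 by 0.94 ± 0.19 and Per1 by 0.64 ± 0.11. The edgeR adjusted p-values of these 4 genes lay between 0.00065 and 0.00488. Arntl went the other way, from 129, 133 and 127 CPM to 23.4, 35.9 and 23.2 CPM in LYVE1+CX3CR1+ and from 83.4, 105 and 83.9 CPM to 44.1, 64.3 and 49.3 CPM in MHCII+CD11c- macrophages. In MHCII+CD11c+ macrophages its groups overlapped, with 21.5, 66.3 and 26.5 CPM in controls and 26.7 and 25.1 CPM after IC. The average was -1.20 ± 0.19 (edgeR adjusted p = 0.000606). Clock (-0.01 ± 0.14), Nr1d1 (0.17 ± 0.32) and Nr1d2 (0.38 ± 0.18) did not pass. The 5 higher calls held without LYVE1+CX3CR1+ macrophages, and that of Arntl was lost (-0.68, edgeR adjusted p = 0.188).

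The clock is known to act through short motifs. Promoters are shown for Fkbp5 and for those called clock genes in which such a motif was found, so each sequence holds one by choice. The sequences are RefSeq promoters of GRCm38.p6, from 250 bases before to 50 after an annotated start of the gene, printed 5′ to 3′ on the strand of the gene. Capitals mark the E-box CACGTG, to which CLOCK and ARNTL bind, or in Arntl the core TAGGTCA of the element to which ROR and REV-ERB receptors bind. Motifs were searched on both strands, where CACGTG reads the same, and none of the motifs searched holds another. A gene can have several annotated starts. Per1, Tef and Arntl have 2 promoters in the table, of which one with the motif is shown, and the windows of Per1, Tef and Fkbp5 lie inside the gene as GENCODE gives it, downstream of its outermost start. The regions are chr11:69098699-69098998 for Per1 (plus strand), chr10:85185005-85185304 for Cry1 (minus), chr15:81802423-81802722 for Tef (plus), chr17:28486100-28486399 for Fkbp5 (minus) and chr7:113207261-113207560 for Arntl (plus).
Per1: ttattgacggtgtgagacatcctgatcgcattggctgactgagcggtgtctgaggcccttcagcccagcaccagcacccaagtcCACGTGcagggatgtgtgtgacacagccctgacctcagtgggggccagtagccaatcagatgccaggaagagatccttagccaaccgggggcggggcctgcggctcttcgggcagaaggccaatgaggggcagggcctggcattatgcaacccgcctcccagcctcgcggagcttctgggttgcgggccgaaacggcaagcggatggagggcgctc
Cry1: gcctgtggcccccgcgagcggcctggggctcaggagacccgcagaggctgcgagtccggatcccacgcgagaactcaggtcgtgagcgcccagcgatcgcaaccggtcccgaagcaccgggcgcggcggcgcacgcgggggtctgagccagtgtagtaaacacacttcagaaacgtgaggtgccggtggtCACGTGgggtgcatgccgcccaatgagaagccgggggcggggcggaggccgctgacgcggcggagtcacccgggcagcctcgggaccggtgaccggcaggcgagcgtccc
Tef: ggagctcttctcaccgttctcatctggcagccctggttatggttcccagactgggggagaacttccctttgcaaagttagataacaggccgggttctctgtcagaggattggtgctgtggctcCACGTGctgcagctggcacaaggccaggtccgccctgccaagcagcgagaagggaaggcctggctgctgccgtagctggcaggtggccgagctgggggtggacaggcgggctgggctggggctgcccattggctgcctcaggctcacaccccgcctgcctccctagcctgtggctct
Fkbp5: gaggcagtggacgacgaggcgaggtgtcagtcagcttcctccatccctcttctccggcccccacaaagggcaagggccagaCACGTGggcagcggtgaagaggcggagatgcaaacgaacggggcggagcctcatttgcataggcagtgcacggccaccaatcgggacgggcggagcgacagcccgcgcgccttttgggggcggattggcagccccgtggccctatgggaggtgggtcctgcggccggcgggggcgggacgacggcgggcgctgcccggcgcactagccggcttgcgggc
Arntl: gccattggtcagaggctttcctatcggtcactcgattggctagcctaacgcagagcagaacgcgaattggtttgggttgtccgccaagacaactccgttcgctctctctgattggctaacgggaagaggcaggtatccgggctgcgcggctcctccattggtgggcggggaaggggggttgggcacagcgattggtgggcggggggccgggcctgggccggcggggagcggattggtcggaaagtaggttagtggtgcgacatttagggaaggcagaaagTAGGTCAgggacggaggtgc

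The E-box began 166 bases before the start used in Per1, 60 in Cry1, 127 in Tef and 169 in Fkbp5. In Arntl the core lay at base 31 after the start. An E-box is in 7.15% of all 32851 promoters. Counted by gene, it was in 11.5% of the genes tested that have a promoter in the table (10441), in 14.2% of 211 genes called higher and in 10.1% of 179 called lower. No promoter of Cry2, Tsc22d3 or Ms4a6c in the table held it, and Per2 has no entry. TAGGTCA was in 2.61% of promoters and, by gene, in 2.4% of those tested, 2.84% of the higher and 2.79% of the lower. The D-box TTATGTAA was in 0.938% of promoters, in 0.728% of genes tested and in 1 gene on each side. The cAMP element TGACGTCA was in 1.79% of promoters and, by gene, in 3.47% of those tested, 1.42% of the higher (3 genes) and 1.68% of the lower (3 genes). The full glucocorticoid response element matched 0.119% of promoters, 0.0575% of genes tested and 1 gene called higher. It had no match in the promoters of Fkbp5 and Tsc22d3, which says only that its letters are not in these windows.

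Receptors for IC rose in part. Of 6 Fc receptor genes, Fcgr1 and Fcer1g were called higher and none lower, with a list median of 0.412. Fcer1g, the common gamma chain, stood at 172 to 332 CPM in controls and 273 to 495 CPM after IC, with no overlap within a subset, and rose by 0.67 ± 0.11 (edgeR adjusted p = 0.000606). Fcgr1, the high-affinity receptor, was at 58.7, 60.3 and 63.6 CPM in LYVE1+CX3CR1+, 132, 76.0 and 140 CPM in MHCII+CD11c- and 17, 19.9 and 0.756 CPM in MHCII+CD11c+ controls. After IC it was at 111, 57.9 and 111 CPM, then 226, 324 and 300 CPM, then 108 and 91.3 CPM. The average was 1.60 ± 0.32 (edgeR adjusted p = 0.0165), and groups overlapped in LYVE1+CX3CR1+ macrophages. Values of Fcgr3 were 0.16 ± 0.10 and those of Fcgr4 1.81 ± 0.60, neither past the test, and Fcgr2b and Fcgr3 are alike enough that reads may be shared. Downstream of the receptors, 4 of 16 signalling genes were called higher and 0 lower. Among them were the Src-family kinase Fgr (0.86 ± 0.20), the exchange factor Vav1 (0.46 ± 0.09) and Inpp5d (0.48 ± 0.10), the phosphatase SHIP1 that opposes the signal. Syk was at -0.24 ± 0.11 and did not pass.

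The Ms4a family had the highest median of the lists, 1.26, with 5 of 9 members called higher and 0 lower. Beside Ms4a6c these were Ms4a4a (1.85 ± 0.21), Ms4a6d (1.70 ± 0.21), Ms4a6b (1.82 ± 0.35) and Ms4a4c (1.46 ± 0.38). In LYVE1+CX3CR1+ macrophages Ms4a4c was near the floor, at 0.945, 0 and 0.558 CPM in controls and 1.46, 1.26 and 0 CPM after IC. Ms4a6d stood at 21.7 to 126 CPM in controls and 83.4 to 423 CPM after IC, and its groups were apart within each subset. Ms4a7, Ms4a8a and Ms4a14 had averages of 0.02, 0.08 and -0.02. All 5 higher calls held without LYVE1+CX3CR1+ macrophages. The members are close in sequence and in place, so reads may be shared among them.

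Chemokines followed, with 8 of 20 called higher, 0 lower and a median of 0.870. Ccl9 and Ccl6 encode ligands of CCR1 that macrophages make. Ccl9 went from 490 to 1180 CPM in controls (median 824) to 1410 to 4900 CPM after IC (median 1950), all IC libraries above all controls, and rose 2.69-fold (log2 fold change 1.43 ± 0.14, edgeR adjusted p = 4.44e-06). Ccl6 rose by 1.13 ± 0.18. Cxcl1 and Cxcl2, which attract neutrophils through CXCR2, rose by 1.41 ± 0.33 and 0.91 ± 0.21 (edgeR adjusted p = 0.0400 and 0.0267). Cxcl1 was at 55.9, 89.7 and 68.2 CPM in LYVE1+CX3CR1+, 30.7, 131 and 57.5 CPM in MHCII+CD11c- and 46.8, 231 and 79.0 CPM in MHCII+CD11c+ controls. After IC it was at 205, 170 and 197 CPM, then 193, 235 and 197 CPM, then 348 and 245 CPM. It was higher in all IC libraries than in the controls of the same subset, though 1 control was at 231 CPM. Ccl12 rose by 1.38 ± 0.28, while Ccl3 (0.82 ± 0.18) and Ccl24 (0.83 ± 0.19) were called with values of -0.15 and -0.40 in LYVE1+CX3CR1+ macrophages. Cxcl13, which attracts B cells, was at 11.7, 2.47 and 1 CPM in MHCII+CD11c- controls and 115, 96.6 and 131 CPM after IC, with all MHCII+CD11c+ controls at 0. Ccl2, Ccl4 and Ccl7 had averages of -0.41, -0.06 and -0.14 and did not pass. Without MHCII+CD11c- macrophages 1 chemokine was called, without LYVE1+CX3CR1+ macrophages 5, and without MHCII+CD11c+ macrophages 4 higher and 1 lower.

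Inflammatory cytokine and NF-kappaB genes had a median near that of all genes. None of 18 passed the edgeR test in either direction, with a median of 0.022. At an unadjusted p under 0.05, 2 were higher and 1 lower, against 2706 of all 15272 genes tested, 1072 of them higher. Tnf was at 144 to 349 CPM in controls and 202 to 404 CPM after IC (0.06 ± 0.14), Il1b at -0.30 ± 0.42 and Il6 at -0.87 ± 0.41. Nfkbia, the inhibitor that NF-kappaB induces, was at 0.31 ± 0.09 (edgeR adjusted p = 0.0569). DESeq2 called 2 of the 18 higher, and a model with surrogate variables 4 higher and 2 lower. Of 14 immediate early genes none was called higher, and Egr2 (-0.93 ± 0.15) and Egr3 (-0.94 ± 0.18) were called lower. Egr2 went from 157 to 468 CPM in controls to 75.2 to 272 CPM after IC, apart within each subset. Fos and Jun, the parts of AP-1, had averages of 0.28 ± 0.10 and 0.12 ± 0.11.

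Type I interferon-stimulated genes had a median of 0.659, with 6 of 18 called higher and 0 lower. These were Irf7 (1.25 ± 0.21), Ifit2 (1.43 ± 0.26), Ifit1 (1.03 ± 0.26), Oas1a (0.78 ± 0.18), Oasl2 (0.88 ± 0.19) and Zbp1 (0.72 ± 0.17). Irf7, the factor that amplifies interferon production, was at 52.4, 39.7 and 49.8 CPM in LYVE1+CX3CR1+ controls and 55.6, 39.3 and 52.3 CPM after IC, where the groups overlapped. In MHCII+CD11c- macrophages it went from 137, 59.4 and 117 CPM to 190, 262 and 407 CPM, and in MHCII+CD11c+ macrophages from 23.6, 17.3 and 44.6 CPM to 166 and 102 CPM. Without MHCII+CD11c+ macrophages 0 of the 18 were called, without MHCII+CD11c- macrophages 1, and without LYVE1+CX3CR1+ macrophages 7. The difference between subsets did not pass the edgeR test for any member of the list.

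Of 12 cytosolic heat shock genes, 5 were called higher and 0 lower, with a median of 0.445, and 11 had a positive average. Hspa1b, the inducible HSP70, stood at 413 to 710 CPM in controls (median 585) and 885 to 2210 CPM after IC (median 1180), a 2.21-fold rise (log2 fold change 1.15 ± 0.12, edgeR adjusted p = 4.44e-06). All IC libraries lay above all controls. Its near-identical copy Hspa1a rose by 0.96 ± 0.11, and the reads of the pair may be split between them. Hspa8, the constitutive form, went from 2650 to 3730 CPM to 3900 to 6000 CPM, again with no overlap over all libraries. Hsp90ab1 rose by 0.44 ± 0.08 and Hsp90aa1 by 0.45 ± 0.12, while Dnajb1 (-0.01) and Bag3 (0.09) did not pass.

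Lysosomal proteases and hydrolases had 4 of 20 called higher, 0 lower and a median of 0.274: Lgmn (0.73 ± 0.12), Ctsb (0.53 ± 0.11), Ctsz (0.48 ± 0.11) and Lamp1 (0.34 ± 0.09). Of 15 genes for uptake of apoptotic cells, the receptors Axl (0.71 ± 0.12) and Timd4 (0.98 ± 0.19) were called higher and the exchange factor Dock1 (-0.39 ± 0.10) lower. Of 12 complement genes, the receptors C5ar1 (0.92 ± 0.16) and Itgam (0.58 ± 0.11) were called higher. Of 13 resident macrophage genes, 4 were called higher, Timd4, Klf2 (0.35 ± 0.09) and Maf (0.49 ± 0.12) among them, and 0 lower. In Timd4 and Maf the response was largest in MHCII+CD11c+ macrophages, at 2.15 and 1.39, where control levels were lowest. Timd4 was at 9.78, 11.9 and 12.5 CPM in those controls and 52.2 and 48.6 CPM after IC. Without that subset none of the resident macrophage genes was called, and Maf had an average of 0.05. The call of Maf was also lost without LYVE1+CX3CR1+ control replicate 1 (adjusted p = 0.064), MHCII+CD11c- IC replicate 3 (0.0566), MHCII+CD11c+ control replicate 3 (0.0574) or MHCII+CD11c+ IC replicate 1 (0.106).

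MHC class II genes had the lowest median, -1.0, or -0.778 with groups at 0 set to their bound, with 5 of 8 called lower and 0 higher. H2-Eb1, a chain of the molecule that presents antigen, was at 2250, 1940 and 2280 CPM in MHCII+CD11c- controls and 1330, 1410 and 1460 CPM after IC. In MHCII+CD11c+ macrophages the groups overlapped, with 4470, 2750 and 4220 CPM in controls and 3840 and 4180 CPM after IC. The log2 fold change there was 0.07 ± 0.22, so H2-Eb1 did not fall in all 3 subsets. The study gated LYVE1+CX3CR1+ macrophages as cells without MHCII on their surface. In them H2-Eb1 was at 3.78, 4.59 and 7.54 CPM in controls and had no read after IC, at least 4.28-fold lower. The fitted average of -2.73 is set by these zeros, and it is -0.88 with the bound. Cd74, the chaperone of class II molecules, was at 9340, 7950 and 7550 CPM in MHCII+CD11c- controls and 5720, 5670 and 5520 CPM after IC. Ciita, the factor that switches class II genes on, was at 214, 165 and 242 CPM there in controls and 65.0, 84.1 and 42.4 CPM after IC. H2-Aa and H2-DMb2 were the other 2 genes called. Averaged without LYVE1+CX3CR1+ macrophages none of the 8 passed, and without either MHCII+CD11c+ IC library 1 did.

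Sterol genes moved in both directions. Hmgcs1, an enzyme of cholesterol synthesis (-0.87 ± 0.19), Srebf2, the factor that switches its genes on (-0.51 ± 0.12), and Insig1, which holds that factor back (-0.62 ± 0.13), fell. Abcg1, a cholesterol exporter, rose by 0.76 ± 0.12, and Plin2, the coat of lipid droplets, by 0.75 ± 0.13. Of the 14 genes 2 were called higher and 4 lower, and none of the lower calls was kept without LYVE1+CX3CR1+ macrophages. The cell cycle list had a median of -0.619 with 1 of 14 called lower (Ccnb1) and 0 higher. Proteasome subunits had a median of 0.333 with 2 of 17 called higher (Psma1, 0.55 ± 0.15, and Psma3, 0.46 ± 0.13). A list of MAP kinase phosphatases and feedback genes, which also holds the kinase Map3k6, had a median of 0.227. Of its 13 members, Dusp1, Dusp2, Spred1 and Map3k6 were called higher.

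**Figure D4:**
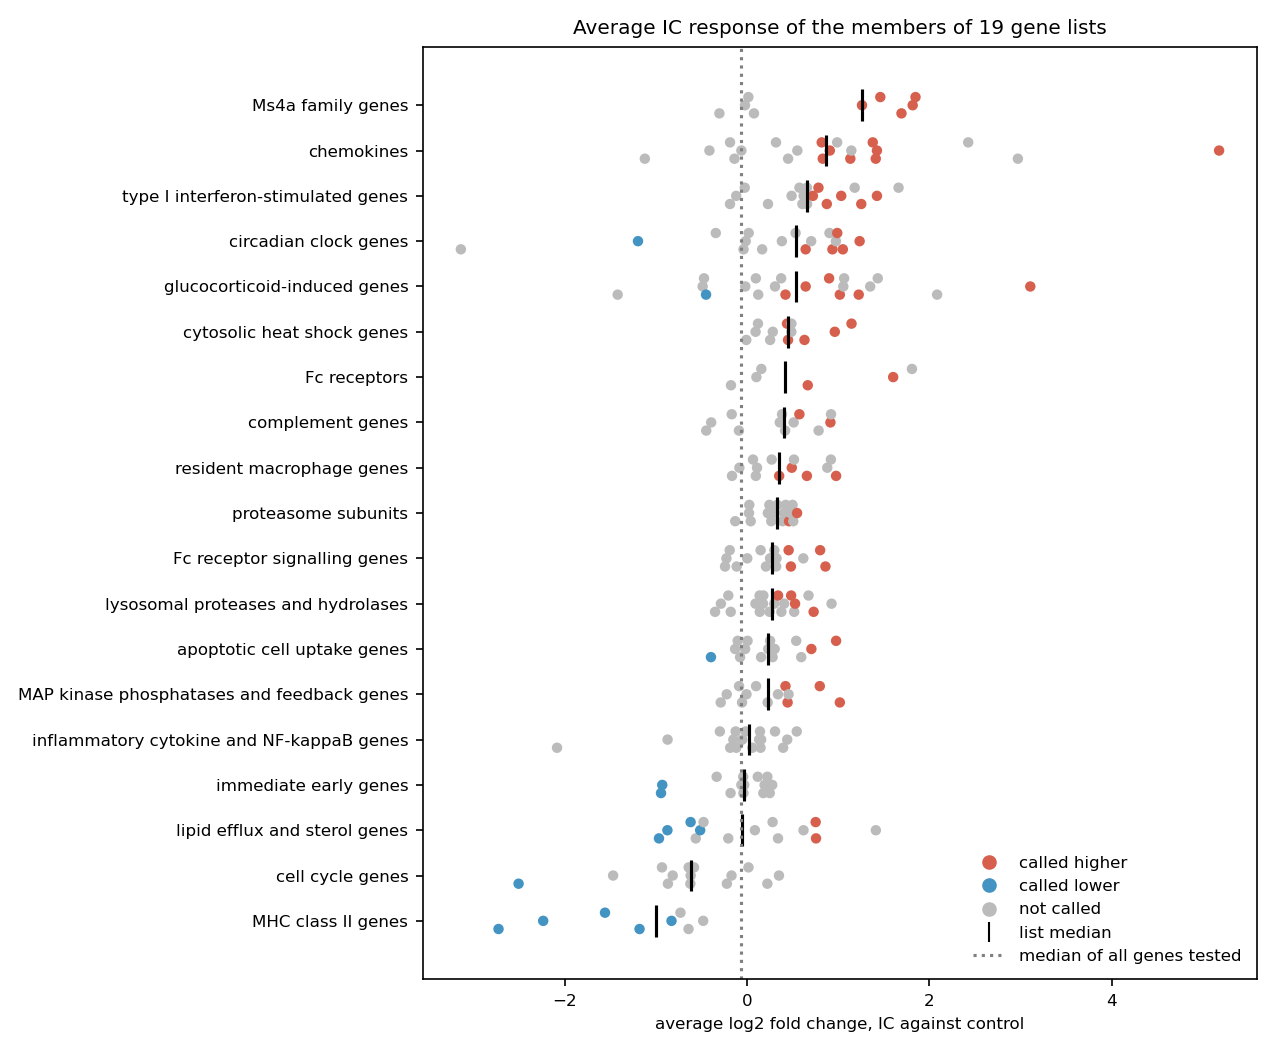
Each point is a gene of 1 of the 19 lists at its average log2 fold change after IC, coloured by its call, with the median of the list as a bar and that of all genes tested, -0.0703, as a dotted line. Medians run from -1.0 for MHC class II to 1.26 for the Ms4a family, and most members of every list are grey, not called, except in the Ms4a and MHC class II lists.

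Whether the 3 responses differ was tested for each gene over both differences between subsets. Of all genes tested, 0.0327% (5) passed the edgeR test at an adjusted p under 0.05, with 1002 at an unadjusted p under 0.05, and 3 of the 511 genes of the average were among the 5. These were H2-Eb1 (adjusted p = 0.000176), Map3k6 (adjusted p = 0.0141) and Runx3 (adjusted p = 0.0356), so their averages stand for no subset. Without LYVE1+CX3CR1+ macrophages none of these 3 was called in the average (adjusted p = 0.505, 0.209 and 0.834). Map3k6, a kinase of stress signalling, rose by 2.04 and 1.44 in the first 2 subsets and had a value of -0.42 in MHCII+CD11c+ macrophages. Runx3, a transcription factor, was at 0.157, 0 and 0.419 CPM in LYVE1+CX3CR1+ controls and 4.10, 14.5 and 3.32 CPM after IC, with 0.39 and 0.15 on the log2 scale in the other 2 subsets. Sdc4, a heparan sulfate proteoglycan, was next (adjusted p = 0.0587, its average not called without MHCII+CD11c- macrophages), with 0.05 in LYVE1+CX3CR1+ against 1.83 and 1.23 in the other macrophages. Maf had an adjusted p of 0.148. A p that misses the threshold does not show that the responses were alike.

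Markers of macrophages summed to 7890 to 17200 CPM in controls and 9100 to 21000 CPM after IC over 8 genes, of which Cd68 was called higher.  The 6 neutrophil markers summed to 29.2 to 252 CPM in controls and 12.6 to 108 CPM after IC, and S100a8 was called lower. Ly6g had no read in any of the 8 IC libraries, nor in LYVE1+CX3CR1+ controls, and reached at most 7.56 CPM in controls. Csf3r was at 62.1, 46.5 and 39.5 CPM in MHCII+CD11c- controls and 66.7, 92.5 and 47.9 CPM after IC. In MHCII+CD11c+ macrophages Csf3r went from 22.8, 10.6 and 12.5 CPM to 23.9 and 29.1 CPM. In LYVE1+CX3CR1+ macrophages it went from 31.7, 29.2 and 32.8 CPM to 14, 7.24 and 32.8 CPM. Monocyte markers summed to 19.7 to 1160 CPM in controls and 8.71 to 991 CPM after IC, dendritic cell markers to 11.3 to 103 and 6.61 to 102 CPM, and fibroblast markers to 8.70 to 214 and 16.6 to 143 CPM. These ranges pool subsets that differ in level. In MHCII+CD11c- macrophages the monocyte marker Plac8 was at 16.8, 3.18 and 16.4 CPM in controls and 24.6, 60.8 and 187 CPM after IC. The dendritic cell marker Flt3 was there at 15.8, 6.36 and 18.7 CPM and at 2.88, 4.53 and 1.38 CPM. The highest sums in controls and after IC were 19.1 and 35.3 CPM for endothelial, 4.35 and 25.5 for mast cell and 23.4 and 10.1 for B cell markers. They were 18 and 18.4 CPM for red cell, 10.4 and 8.26 for muscle and 2.56 and 4.33 for T cell markers. None of the 26 tested markers of these 9 other cell types was called. At an unadjusted p under 0.05, 4 were higher and 2 lower, against 2706 of all 15272 genes tested, 1072 of them higher. In such bulk samples fewer cells of a type and less RNA per cell cannot be told apart, and the part of admixed cells in the average response was not tested.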

How the data were processed

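Per the labels and the study's methods, stranded paired-end libraries were prepared from 5 ng of total RNA. The authors used Trim Galore for trimming, HISAT2 for alignment to mm10 and featureCounts for counting. Versions, strand setting and treatment of multiply aligned reads are not given in the sources used here, so reads of near-identical, overlapping or antisense genes may be shared. The deposited values are raw counts per gene symbol, of which 97.4% of 22859 matched GENCODE M21. The joint table had 1 unmatched column, which was not used. No replicate repeated another (lowest chi-square per degree of freedom 6.77).

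The analysis used edgeR 4.0.16 under R 4.3.3. A filter (filterByExpr, minimum count 10) left 15272 genes, which were scaled by TMM and fitted with 6 group means (glmQLFit, robust, 11 residual degrees of freedom) after a test on simulated data. The contrast was the mean of the 3 subset responses, tested by quasi-likelihood F with Benjamini-Hochberg adjustment, and the difference between subsets was tested on 2 degrees of freedom. CPM use TMM library sizes. Each SE was derived from the test, as the size of the fitted log2 fold change divided by the square root of its F. Such an SE is not reliable where a group had no read. Floors (3 counts per library) reflect the error of counting alone, because PCR copies of a molecule are counted separately. A group with no read was set to the highest floor of its libraries for a bound.

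Genes named are Fkbp5, Tsc22d3 and Ms4a6c, the 15 called genes on each side that had the smallest p and 1 direction in all subsets (predicted models left out), the 6 called genes with the smallest p of the difference, and list members. Some genes that this rule names are not reported here, but list counts include them. Genes, lists and tests were chosen with earlier results of these data known. Deviations of same-numbered libraries had correlations of -0.153 to 0.0817 across treatments (24 pairs, 0 over 0.1) and 0.00129 to 0.286 within a treatment (16 pairs, 2 over 0.1). The numbers thus did not meet the criterion for pairs, every correlation over 0.1. The consensus correlation within a number and treatment was 0.0527 (limma). Missing the criterion does not show that libraries of 1 number came from different animals. Alternatives used DESeq2 1.42.0, limma 3.58.1 (voom), sva 3.50.0, other scalings and filters, equal depth, and left-out libraries or subsets.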

Additional observations from a re-analysis of the deposited data

Results flagged for a closer look

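A set of 5 genes (of 15272 tested) had responses that differed between the subsets by the edgeR test of the difference, which is what brought them here. H2-Eb1 (adjusted p = 0.000176) and the Map3k6 (adjusted p = 0.0141) and Runx3 (adjusted p = 0.0356) responses are described in the report. Slc37a2, a sugar phosphate exchanger, had a log2 fold change of -1.87 ± 0.26 in LYVE1+CX3CR1+ macrophages, -0.19 ± 0.25 in the MHCII+CD11c- subset and 1.13 ± 0.28 in the MHCII+CD11c+ subset (adjusted p = 0.00171), and its average of -0.31 was not called. Its control means were 122, 82.7 and 29.6 CPM and its IC means 33.4, 72.3 and 65.1 CPM. Tgtp2, an interferon-induced GTPase with the near-identical copy Tgtp1, had -3.89 ± 0.63, 0.82 ± 0.38 and 0.90 ± 0.42 (adjusted p = 0.0109), and its Lyve1 IC libraries were at 1.17, 0 and 0 CPM, where the floors were 0.877, 0.943 and 1.24 CPM. Groups held at most 3 libraries, so no library was tested as standing apart.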

How the results depend on the processing

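The 511 calls (259 higher, 252 lower, 474 with 1 sign, 72 in lists, 5 differing between subsets) moved by over 1.5 times in several alternatives. Leaving out LYVE1+CX3CR1+ macrophages gave 201 calls (167 higher, 34 lower, 46 in lists), and leaving out MHCII+CD11c- macrophages gave 120 (54 higher, 66 lower, 31 in lists). Leaving out 1 library gave 198 to 673 calls, 128 to 348 higher, 70 to 351 lower, 189 to 623 with 1 sign, 42 to 88 in lists and 2 to 48 differing. The lowest came without MHCII+CD11c+ IC replicate 1 (198) or 2 (212) and LYVE1+CX3CR1+ control replicate 1 (325), and 48 differing without MHCII+CD11c+ control replicate 2. An adjusted p under 0.01 left 180 calls (110 higher, 70 lower). Surrogate variables gave 1214 calls (529 higher, 685 lower, 1088 with 1 sign) and 42 differing, and DESeq2 gave 939 (565 lower, 874 with 1 sign) and 55 differing. Differing genes were 15 with no filter and 3 at equal depth. With the replicate number as a block, 464 genes were called and 13 differed, with the block within treatment 454 and 1, and with 1 value per number and treatment 72 (42 higher, 30 lower, 21 in lists), where Rnase6, Hepacam2, Snx29, Mctp1, Map3k6, Runx3 and Maf lost their calls. The sign in the subset left out was the same for 82.3% of calls over all splits, 96.7% for MHCII+CD11c- and 79.3% for MHCII+CD11c+ macrophages. Causes were not tested. Without genes at the floor in the Lyve1 IC libraries, an alternative chosen after seeing the data, 425 were called (252 higher, 173 lower). Of 1115 values of 35 named genes under alternatives, 1086 kept direction and call, 29 lost the call and 0 turned, and 22 genes kept it in every alternative. At equal depth 260 genes were called higher and 187 lower. The floor of the Lyve1 IC libraries reached 1.24 CPM, below which a fall was not detectable.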

Other observations

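Some genes outside the naming rule had no overlap between the 8 IC and the 9 control libraries, and they are named here after their values were seen. On the higher side these were Fth1, the heavy chain of ferritin (0.65 ± 0.09), Sod2, the superoxide dismutase of mitochondria (0.70 ± 0.12), Ubb, a ubiquitin gene (0.35 ± 0.08), and Psmc1 (0.79 ± 0.14) and Psmd4 (0.69 ± 0.11), both of the regulatory particle of the proteasome. Apobec1, a cytidine deaminase, was at 0.74 ± 0.10, Arpc3, a subunit of the actin-nucleating ARP complex, at 0.55 ± 0.09 and Cept1, which makes phospholipids, at 0.92 ± 0.16. All 8 values are average log2 fold changes with SE, and all were called (edgeR adjusted p between 0.000103 for Fth1 and 0.0158 for Ubb). On the lower side Tgfb1, a growth factor that restrains inflammation, had no overlap either, and its average of -0.26 ± 0.09 was not called (edgeR adjusted p = 0.0946).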
